A study of Mus musculus with 4 samples.

Results

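The genes described here are 10 guidance genes of the mouse, chosen by their symbols: the receptors Robo1, Robo2, Robo4, Unc5b and Unc5c, and the secreted ligands Slit1, Slit2, Slit3, Ntn1 and Ntn4. All 10 were among the 26822 genes of the table. Their transcripts were measured by RNA-seq in endothelial cells (ECs) of retinas from C57BL/6J mice at postnatal day 6, an age at which the superficial vessels are still growing across the retina. The 4 libraries belong to 1 group with the treatment label "control", no allele or agent is named, and retinas were collected in pairs, dissociated with collagenase and sorted for viable cells that were positive for CD31 (Pecam1) and negative for the leukocyte marker CD45 (Ptprc). The gate joins the ECs of arteries, veins, capillaries and the growing front into 1 pool. The labels do not say which library came from which animals.

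Slits are secreted proteins that bind Robo receptors, and netrins are laminin-related secreted proteins that bind Unc5 receptors, Dcc and neogenin. Both systems steer growing axons, and several of their receptors also act in vessels. Robo4 is largely restricted to ECs and is known for holding vessels stable, Robo1 and Robo2 receive Slit2 in the growing retinal vasculature of the mouse, and Unc5b is the netrin receptor of ECs, known from tip cells and arteries and also as a binding partner of Robo4.

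Values are the authors' normalised read counts, rounded to whole numbers. Because a longer transcript gives more reads, genes were compared with each other as a level per kb, which is the normalised count divided by the exonic length in kilobases, with the exons of all GENCODE M21 transcripts of a gene joined. Means are ± SD over n = 4 libraries. Library totals were 14844071, 15003925, 15017432 and 14877152. How many reads stand behind a value is unknown. In library 1 an unusual number of rows (560) stood at exactly 9, and in libraries 2 to 4 at exactly 6 (728 to 751 rows), so that values of this size may rest on very few reads. A mean of at least 10 is called detected and a mean of at least 1000 abundant. The 10 endothelial markers examined were all detected, 9 of them abundant, with summed values of 59595, 58681, 58312 and 56762 in libraries 1 to 4, whereas Ptprc, the gene of CD45, stood at 11, 1, 1 and 0.

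Promoter windows were available from RefSeq (GRCm38.p6) for 8 of the 10 genes, each running from 250 bases before to 50 bases after an annotated transcript start. The windows of 3 genes are shown because these genes span the range of levels found: Robo4 had the highest level, Unc5b the second highest, and Slit3 was the gene not detected. Each is read 5′ to 3′ on the strand of its gene, and capitals mark the GC box, GGGCGG on either strand (CCGCCC when read on the other strand). The Robo4 window lies at chr9:37401722-37402021 on the plus strand, the Unc5b window at chr10:60831532-60831831 on the minus strand and the Slit3 window at chr11:35121206-35121505 on the plus strand.
Robo4: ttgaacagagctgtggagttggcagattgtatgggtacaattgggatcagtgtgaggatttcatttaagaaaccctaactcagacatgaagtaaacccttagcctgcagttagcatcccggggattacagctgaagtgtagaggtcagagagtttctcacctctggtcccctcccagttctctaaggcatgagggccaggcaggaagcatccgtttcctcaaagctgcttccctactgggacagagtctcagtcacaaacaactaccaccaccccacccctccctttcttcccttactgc
Unc5b: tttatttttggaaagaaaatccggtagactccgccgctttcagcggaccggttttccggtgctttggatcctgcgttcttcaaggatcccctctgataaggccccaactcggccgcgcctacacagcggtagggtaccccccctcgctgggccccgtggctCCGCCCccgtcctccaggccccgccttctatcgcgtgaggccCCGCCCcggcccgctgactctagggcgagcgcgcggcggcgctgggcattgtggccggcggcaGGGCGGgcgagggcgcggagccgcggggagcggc
Slit3: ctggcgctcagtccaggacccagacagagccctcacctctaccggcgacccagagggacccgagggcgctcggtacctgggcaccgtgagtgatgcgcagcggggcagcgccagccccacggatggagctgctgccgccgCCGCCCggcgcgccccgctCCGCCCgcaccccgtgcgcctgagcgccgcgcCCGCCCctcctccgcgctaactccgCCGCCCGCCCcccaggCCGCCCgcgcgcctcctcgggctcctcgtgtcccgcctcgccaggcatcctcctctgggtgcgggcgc

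The Robo4 window held no GC box and had a GC content of 50.3%. Those of Unc5b and Slit3 held 3 and 6 GC boxes, with GC contents of 69.7% and 78.3%, and 2 of the 6 boxes of Slit3 overlapped. A GC box was found in 35.7% of 32851 RefSeq promoter windows of the same length and in 4 of the 8 genes (Slit2, Unc5b, Ntn4 and Slit3). The exact sequence GGAAGT, searched on both strands as 1 form of an ETS motif, was in the window of 1 gene (Unc5c) against 23.8% of all windows. GGAATG, searched as a TEAD motif, was in 1 of the windows of Robo2 against 14.7% of all windows. That window (chr16:75092721-75093020) lies outside the Robo2 row, which ends at 74411825, and the window at that end held no match. Other forms of both motifs were not searched, so a window without a match may still hold one. Among Robo4, Unc5b and Slit3, which were shown for their levels, the number of GC boxes ran opposite to the level. Of these, the gene with the most boxes was the one not detected and the gene with none had the highest level. The other windows did not keep this order: those of Robo1, Robo2 and Unc5c held no GC box, that of Slit2 held 3 and that of Ntn4 held 4. These matches are a description of letters in a window and not of binding.

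The genes Slit2 and Slit3 also carry microRNA hairpins within their introns. RefSeq places Mir218-1 at chr5:48223942-48224051 in Slit2 and Mir218-2 at chr11:35616816-35616925 in Slit3, both on the strand of the host gene, and neither hairpin touches an exon. Both give the same mature microRNA, shown because it ties the ligand genes to each other by sequence, with its seed (bases 2 to 8) in capitals.
mmu-miR-218-5p: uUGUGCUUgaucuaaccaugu
Mature microRNAs were not measured in these poly(A) libraries.

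Among all 10 genes, 9 were detected, against 56.0% of all genes in the table, and 3 (Robo4, Unc5b and Robo1) were abundant, against 19.7%. All 3 abundant genes were receptors. None of the 5 ligands had a mean above 211, and Slit3 was the gene below the detection threshold. The 5 receptors together gave 1544, 1499, 1453 and 1420 normalised reads per kb in libraries 1 to 4 (1479 ± 53.9), and the 5 ligands 24.9, 32.3, 19.3 and 37.5 (28.5 ± 8.02). The ratio of the receptor sum to the ligand sum was 62.0, 46.4, 75.2 and 37.9, with a mean of 55.4 ± 16.6. It was 40.9 ± 9.29 with GENCODE basic transcripts and 31.2 ± 5.11 when values were not divided by length. The receptor sum was carried mainly by Robo4. Both sums cover only the 10 genes: outside them, the Unc5 ligand Flrt2 had 461 per kb, Ntn3 had 16.5 and the receptor Unc5a had 124. In such bulk samples, fewer cells of a type and less RNA per cell cannot be told apart.

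**Figure D1:**
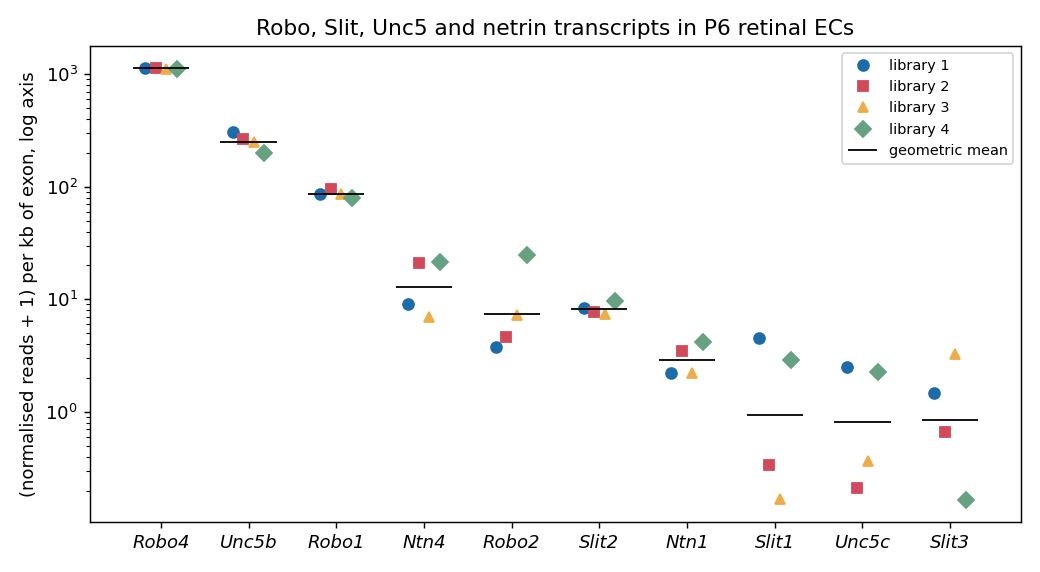
Level of each gene in each library, as (normalised reads + 1) per kb of exon on a log axis. Symbols are libraries 1 to 4 and bars are geometric means; the points of Robo4, Unc5b and Robo1 form separate tight clusters at the top, while those of Slit1, Unc5c and Slit3 are scattered and overlap.

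Of the Robo receptors, Robo4 was by far the highest and Robo1 was present at a clearly lower level. Robo4 (ENSMUSG00000032125, chromosome 9, 37401897 to 37415115, plus strand, 5302 exonic bases) had 6068, 6020, 5895 and 5909 normalised reads. The 4 values lay within a 1.03-fold range. Its level of 1127 ± 15.9 per kb ranked 254 of 15000 detected genes of known length (percentile 98.3). It exceeded the levels of 4 of the 10 endothelial markers, or of 3 with basic transcripts. The highest level of any detected gene was 1834 per kb (Cldn5), and rank 11 stood at 1694 per kb (Tek), so that the upper end was narrow. Whether the normalised values flatten off towards this end was not tested. The small spread of Robo4, its differences from other genes, its family share and its place among the markers all rest on values there. The median level of detected genes was 119.9 per kb.

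Robo1 (ENSMUSG00000022883, chromosome 16, 72308306 to 73046095, plus strand, 16511 exonic bases), a Slit receptor known from axons that cross the midline, had 1433, 1588, 1413 and 1300 normalised reads. Its level was 86.8 ± 7.18 per kb, at percentile 43.8 of detected genes, and the libraries stood close together. The difference between Robo4 and Robo1 was 3.70 ± 0.11 on the log2 scale, or 13.0-fold. The size of this difference rests on the length used: it was 2.63 with basic transcripts (6.18-fold) and 2.06 without division by length (4.18-fold). With GENCODE basic transcripts alone, a choice of length made after seeing the data, Robo1 rose to 189.5 ± 15.7 per kb, since its exonic length was 2.18 times longer with all transcripts than with basic ones, and it kept the third place.

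Robo2 (ENSMUSG00000052516, chromosome 16, 73891839 to 74411825, minus strand, 16983 exonic bases), the paralogue that shares Slit binding with Robo1, had 63, 77, 121 and 419 normalised reads. Library 4 was far above libraries 1 to 3, whose mean was 87 against 170 ± 168 with library 4 included. The level of Robo2 was 10.0 ± 9.88 per kb. All 4 libraries had Robo2 below Robo1, by 3.54 ± 1.31 on the log2 scale, and below Robo4, by 7.24 ± 1.23 (6.37 with basic transcripts and 5.56 without division by length). Each of the 3 pairs of Robo genes passed the exact two-sided permutation test of 4 values against 4 (adjusted p = 0.0378 over 45 pairs). An unadjusted p of 0.0286 is the smallest that this test allows, and any pair of genes without overlap reaches it. The test treats the values as unpaired, although both genes of a pair come from the same libraries. In the exact sign-flip permutation test, which pairs them by library, none of the 45 pairs passed, for 4 libraries allow no p under 0.125 (adjusted p = 0.161), and this holds for every adjusted p of 0.0378 given here. Among all pairs of detected genes, 88.7% had levels that did not overlap.

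Robo3, a family member with a known part in commissural axons, lies tail to tail with Robo4 on chromosome 9, with 553 bases between the annotated gene ends. It had 28, 90, 161 and 193 normalised reads, which placed it between Robo2 and Robo1 by level (17.2 ± 10.8 per kb), though with overlap with Robo2. Of the summed level of the 4 Robo genes, Robo4 made up 92.4, 90.9, 90.5 and 89.4% in libraries 1 to 4 (90.8 ± 1.21%). The share of Robo1 was 7.0 ± 0.56%, that of Robo3 1.39 ± 0.87% and that of Robo2 0.81 ± 0.79%. Robo4 remained the largest share, at 77.6%, when values were not divided by length.

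Of the Unc5 receptors, Unc5b was abundant and Unc5c was near the detection threshold. Unc5b (ENSMUSG00000020099, chromosome 10, 60762593 to 60831581, minus strand, 6258 exonic bases) had 1916, 1644, 1553 and 1251 normalised reads. Library 1 was highest and library 4 lowest, with a 1.53-fold range. Its level was 254 ± 43.8 per kb, at percentile 68.6 of detected genes, and close to that of Erg, the lowest of the 10 endothelial markers (264 per kb). With basic transcripts Unc5b had 271 per kb and was above Erg. Robo4 exceeded Unc5b by 2.16 ± 0.24 on the log2 scale (4.48-fold), and Unc5b exceeded Robo1 by 1.54 ± 0.20 (2.90-fold), both with adjusted p = 0.0378 in the exact permutation test. The second difference rests on the length used: it was 0.50 with basic transcripts (1.42-fold), and without division by length it was 0.14 and did not pass (adjusted p = 0.419, exact permutation test). The spread of Unc5b was wide for its level: its SD of log2 values (0.25) stood at percentile 97.4 among the 500 genes of nearest mean, whereas that of Robo4 (0.02) stood at percentile 17.8.

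Unc5c (ENSMUSG00000059921, chromosome 3, 141465216 to 141834924, plus strand, 19135 exonic bases), a netrin receptor known for axon repulsion, had 47, 3, 6 and 42 normalised reads. Libraries 1 and 4 were high and libraries 2 and 3 near 0. Its level was 1.28 ± 1.21 per kb and Unc5b was higher in all 4 libraries, by 8.28 ± 1.86 on the log2 scale (adjusted p = 0.0378, exact permutation test). It was 7.39 with basic transcripts, 7.43 with 10 added to each value in place of 1, and 6.67 without division by length.

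Of the other Unc5 genes, Unc5a was detected at a higher value than Unc5d. Unc5a, known mainly from neurons, had 408, 582, 565 and 511 normalised reads and made up 24.0, 34.7, 34.8 and 37.4% of the summed Unc5 level. The Unc5b share was 75.1, 65.3, 63.8 and 61.0% (66.3 ± 6.15%), so that library 1 had the highest Unc5b share and the lowest Unc5a share. Unc5d and Unc5c made up 0.66 ± 0.61% and 0.35 ± 0.33%. The Unc5a row overlaps the end of Hk3 on the opposite strand, but Hk3 had a mean of 2.25 normalised reads.

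**Figure D2:**
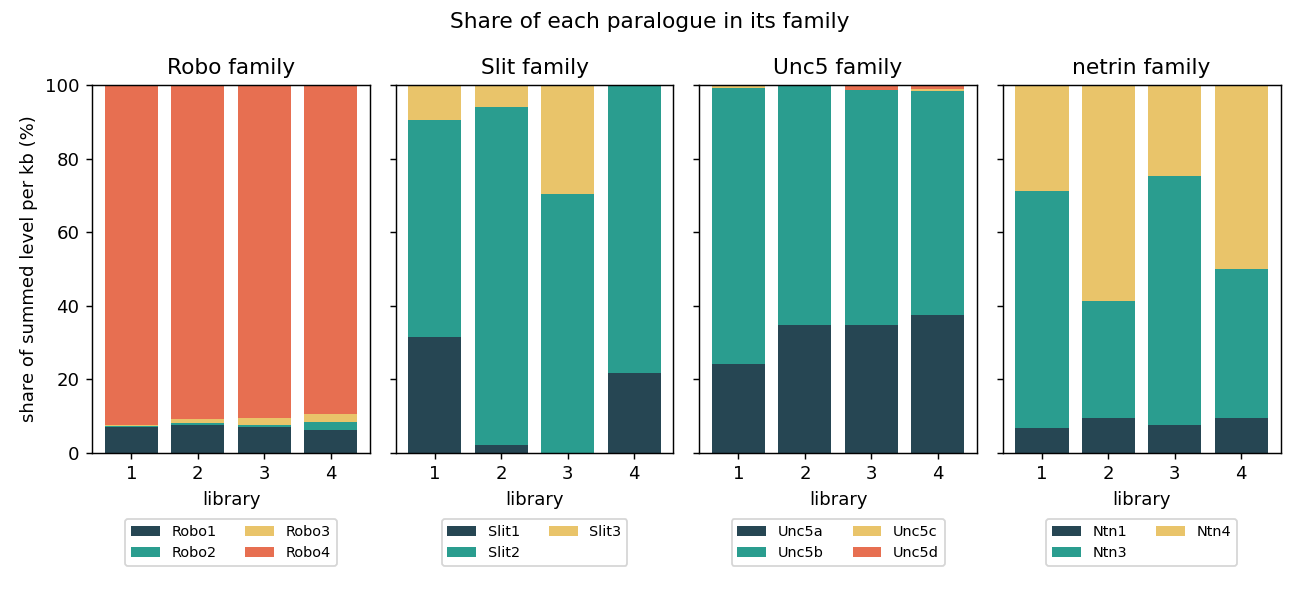
Share of each paralogue in the summed level per kb of its family, in percent, for each of the 4 libraries. Robo4 fills about the same 89.4 to 92.4% of the Robo bars, Unc5b and Unc5a make up nearly all of the Unc5 bars, and the Slit and netrin bars differ widely between libraries.

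Of the Slit ligands, Slit2 was the one with steady values, while Slit1 and Slit3 were at or near 0 in some libraries. Slit2 (ENSMUSG00000031558, chromosome 5, 47983138 to 48307733, plus strand, 25433 exonic bases) had 211, 196, 189 and 247 normalised reads. These values lay within a 1.31-fold range. The level of Slit2 was 8.29 ± 1.02 per kb, at percentile 11.6 of detected genes. It reached 21.03 ± 2.58 per kb with basic transcripts alone, because the joined exons of all transcripts were 2.54 times longer.

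Slit1 (ENSMUSG00000025020, chromosome 19, 41600257 to 41743665, minus strand, 5921 exonic bases), a Slit made mainly by neurons, had 26, 1, 0 and 16 normalised reads. It reached the detection threshold with a mean of 10.8 ± 12.5, and fell under it when library 1 or library 4 was left out. Slit3 (ENSMUSG00000056427, chromosome 11, 35121224 to 35708507, plus strand, 6067 exonic bases) had 8, 3, 19 and 0 normalised reads and a mean of 7.50 ± 8.35. It passed the threshold when library 4 was left out. Each of the pair was listed at 0 in 1 library, and the other 8 genes were above 0 in all 4.

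Slit2 was higher than Slit1 in 4 of 4 libraries, by 3.16 ± 2.19 on the log2 scale, and higher than Slit3 in 4 of 4, by 3.28 ± 1.99 (adjusted p = 0.0378 for each, exact permutation test). The size of both differences depends on the 1 added to values at or near 0, and on the length: they were 1.51 and 1.70 with 10 added in place of 1, and 4.48 and 4.41 with basic transcripts. Slit1 and Slit3 differed by 0.12 ± 3.599 (adjusted p = 0.943, exact permutation test), with single libraries between -4.29 and 4.12, so that no order between them can be given. The Slit2 share of the summed Slit level was 59.2, 92.1, 70.4 and 78.2% (74.97 ± 13.8%).

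Of the netrins, Ntn4 was above Ntn1, and both were low. Ntn4 (ENSMUSG00000020019, chromosome 10, 93640681 to 93747207, plus strand, 3741 exonic bases) encodes netrin-4, a laminin-binding netrin of basement membranes, and had 33, 77, 25 and 79 normalised reads. Libraries 2 and 4 lay above libraries 1 and 3, without overlap. Its level was 14.3 ± 7.62 per kb, at percentile 17.9 of detected genes, the fourth highest of the 10 genes.

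Ntn1 (ENSMUSG00000020902, chromosome 11, 68209364 to 68400823, minus strand, 6277 exonic bases), the classical ligand of Dcc and Unc5 receptors, had 13, 21, 13 and 25 normalised reads. Libraries 2 and 4 were again the higher ones. Its level was 2.87 ± 0.96 per kb. Ntn4 was higher than Ntn1 in 4 of 4 libraries, by 2.15 ± 0.41 on the log2 scale (4.44-fold, adjusted p = 0.0378, exact permutation test). Without division by length the difference was 1.40 and did not pass the exact permutation test (adjusted p = 0.0735).

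Ntn3 had 100, 57, 93 and 87 normalised reads and the largest mean share of the 3 netrins compared (51 ± 18%, against 40.6 ± 16.4% for Ntn4 and 8.37 ± 1.35% for Ntn1). The Ntn3 row overlaps Tbc1d24 on the same strand, and Tbc1d24 had a mean of 642 normalised reads, so that reads of the 2 genes may have been divided between them and the level of Ntn3 is uncertain. With Ntn3 left out, Ntn4 made up 81.9% of the netrin sum. Ntn5 was sought as well but had no row under that symbol. Of the 10 genes themselves, 6 overlapped another row of the table, and none of those rows had a mean above 1.5 normalised reads.

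Over all 45 pairs of the 10 genes, 34 passed the permutation test (75.6%). Among the 36 pairs with both genes detected, 28 did (77.8%), below the 88.7% of all pairs of detected genes whose levels did not overlap. The first 3 places (Robo4, Unc5b, Robo1) were separated from each other and from all 7 other genes on the scale per kb. Without division by length the values of Unc5b and Robo1 overlapped, and the second and the third place were not separated. Robo1 exceeded Ntn4, the next in order, by 2.74 ± 0.83 on the log2 scale (6.69-fold, adjusted p = 0.0378, exact permutation test).

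Below Robo1 the order was not resolved in full. Ntn4, Robo2 and Slit2 had mean levels of 14.3, 10.0 and 8.29 per kb and could not be told apart: Ntn4 less Robo2 was 0.80 ± 1.14 on the log2 scale (adjusted p = 0.354), Ntn4 less Slit2 was 0.65 ± 0.75 (adjusted p = 0.330) and Slit2 less Robo2 was 0.15 ± 1.09 (adjusted p = 0.927), all by exact permutation tests. Between single libraries, Slit2 less Robo2 ran from -1.34 to 1.15. Slit2 exceeded Ntn1 by 1.51 ± 0.37 (adjusted p = 0.0378, exact permutation test), while Robo2 and Ntn1 overlapped (adjusted p = 0.0714, exact permutation test). Ntn1, Slit1, Unc5c and Slit3 formed the lower end, and none of the 6 pairs among these 4 genes passed. With 10 added to each value in place of 1, Ntn1 over Unc5c did pass, at 1.58 (adjusted p = 0.0378, exact permutation test). Robo2 over Slit3 then lost its call. The added value is divided by length as well, and Unc5c has 19135 exonic bases against 6277 for Ntn1. Without division by length and with 1 added, Ntn1 over Unc5c was 0.24 (adjusted p = 0.789, exact permutation test), so that no order between them can be given. With basic transcripts alone the order of the middle genes became Slit2, Robo2 and Ntn4, still with no call among them, while Robo2 over Ntn1 passed (adjusted p = 0.0357, exact permutation test). Without division by length Ntn4 less Slit2 was -2.12 on the log2 scale (adjusted p = 0.0390, exact permutation test).

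The genes that act with these receptors and ligands were examined in 4 lists. Their counts stand beside shares of 56.0% detected and 19.7% abundant among all genes of the table. The list of other family members and co-receptors held 9 genes with a row, of which 8 were detected and none was abundant. The highest were Neo1 (neogenin, a netrin and RGM receptor) with 583 ± 103 normalised reads, Unc5a with 516 ± 78.4 and Robo3 with 118 ± 73.8. Dcc, the main netrin receptor of neurons, had 63, 16, 18 and 121 normalised reads. At the lower end were Unc5d (22.5 ± 20.8), Ntng1 (13.8 ± 14.3) and Ntng2 (5 ± 1.15), the last of these not detected. Ntng1 had a mean of 7.33, under the threshold, without library 4, and Unc5d one of 14 without library 3.

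Of the other ligands and binding partners, 8 of 9 were detected and 3 were abundant. Dag1 (dystroglycan, which binds Slits in the mouse) had 5174 ± 128 normalised reads, Flrt2, a ligand of Unc5 receptors, had 3557 ± 282, and Rgmb, a neogenin ligand, had 1265 ± 103. Per kb, Flrt2 had a level of 461 ± 36.5 and Rgmb of 165 ± 13.4, so that both lay above each of the 5 Slit and netrin genes in every library. At the lower end, Rgma had 14.8 ± 4.57 normalised reads, Draxin, a netrin-binding guidance protein, had 0, 26, 6 and 11, and Flrt1 had 0, 0, 0 and 6 and was not detected. Draxin was under the threshold without library 2 (5.67).

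The effector lists were detected in full. Of 17 Robo effectors, 17 were detected and 13 were abundant, with a median level of 231 per kb. The highest were Git1 with 4736 ± 91.4 normalised reads and Pxn (paxillin) with 4208 ± 326, which take part in the Robo4 to Arf6 pathway, and the small GTPase Cdc42 with 3661 ± 48.8. Among the srGAPs, GTPase-activating proteins that bind Robo tails, Srgap2 had 3600 ± 324 and Srgap1 1296 ± 56.5 normalised reads, whereas Srgap3 had 34.2 ± 22.6. The lowest of the list beside Srgap3 were the kinase Pak1 (52.2 ± 17.7) and Enah, a regulator of actin filaments (221 ± 35.7).

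Of 9 netrin receptor effectors, 9 were detected and 7 were abundant, with a median level of 499 per kb. Ablim1, an actin-binding protein, had 9942 ± 195 normalised reads, Ptk2 (focal adhesion kinase) 5887 ± 67.2 and the kinase Fyn 5070 ± 136. The lowest were Trio, a guanine nucleotide exchange factor (849 ± 145), Dapk1, a death-associated kinase that binds Unc5b (918 ± 186), and Src (1422 ± 74.5). Many of these effectors serve other receptors as well. The median levels of the lists of other family members (4.14 per kb) and of other ligands and partners (7.19 per kb) were both under the median of all detected genes (119.9 per kb), and those of both effector lists were above it.

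**Figure D3:**
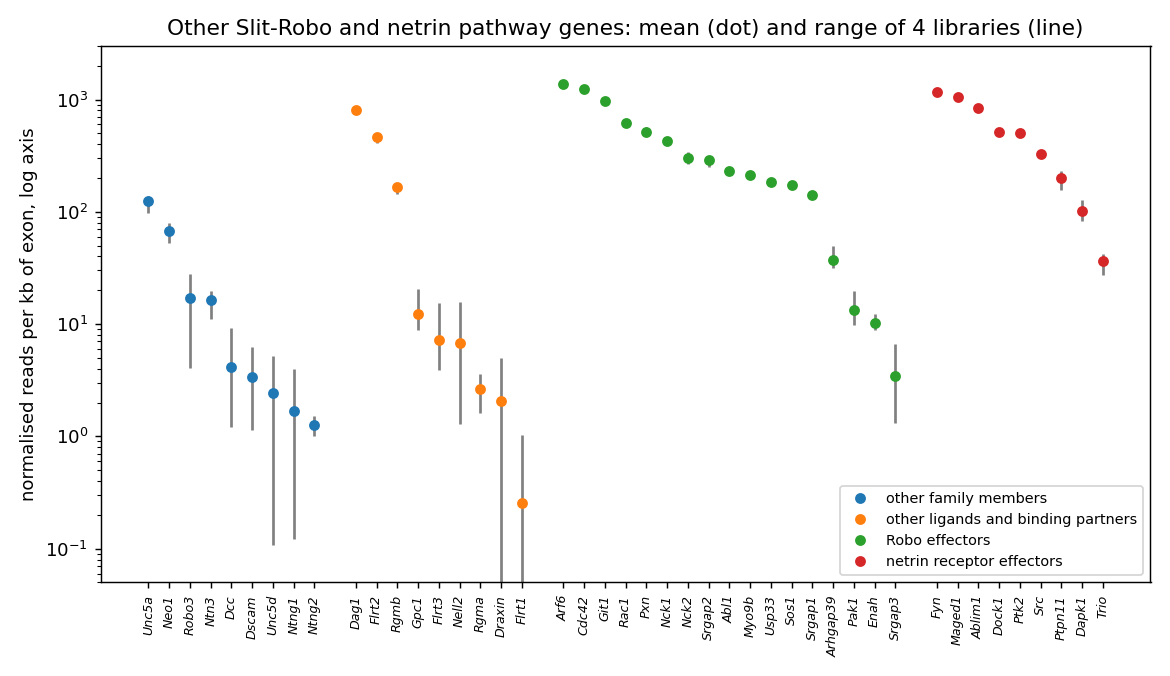
Level of the other genes of the Slit-Robo and netrin pathways, as normalised reads per kb of exon on a log axis. Dots are means and lines the range of 4 libraries, cut at the lower edge where a library is listed at 0; most effectors lie above 100 per kb, while Unc5a alone of the other family members has a mean above that level.

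The 4 libraries are replicates of 1 group, and the 10 genes differed in how far the libraries agreed. Robo4 had the smallest SD of log2 values (0.02), followed by Robo1 (0.12) and Slit2 (0.17). Robo2 (1.22), Unc5c (1.82), Slit3 (1.84) and Slit1 (2.32) had the largest. Set against the 500 genes of nearest mean, the SD of Robo2 stood at percentile 99.0, that of Slit1 at 97.8, Unc5b at 97.4 and Unc5c at 96.0, whereas Ntn1 stood at percentile 30.2 and Slit2 at 31.6.

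Robo2 was 2.31 higher in library 4 than the mean of the other 3 on the log2 scale. Unc5b had its lowest value there (log2 ratio -0.44) and its highest in library 1 (0.38), and no library of Unc5b stood apart. Of the 9 detected genes, 4 (Ntn4, Robo2, Slit2 and Ntn1) had their highest value in library 4, against 30.6% of all detected genes, and 2 (Unc5b and Robo1) their lowest, against 33.0%. The gap between library 4 and the nearest other library of Robo2, divided by its whole range, was 0.837, beyond the 95% critical value of Dixon's ratio for 4 values. It was the only one of the 10 genes for which this was so, and 6.62% of all detected genes were beyond it for any library in either direction, and 2.32% for library 4 as the high one.

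Several marker lists of other retinal cells also moved with library 4. All 9 photoreceptor markers were detected and all 9 were highest in library 4. Their summed values were 4608 to 5859 in libraries 1 to 3 and 13543 in library 4, led by Rbp3. Of 10 pericyte and smooth muscle markers, 8 were highest there, with sums of 586 to 2246 in libraries 1 to 3 and 3801 in library 4, led by Rgs5. The 7 amacrine and horizontal cell markers, of which 3 were detected and Lhx1 was at 0 throughout, summed to 57 to 102 and to 292. Of the 9 progenitor and Müller glia markers, with Aqp4 at 0 throughout, 8 were detected and 5 of these were highest in library 4 (sums of 3888 to 4714 and of 5548). The 8 retinal ganglion cell markers, with Pou4f2 at 0 throughout, did not stand apart in library 4 (sums of 671 to 916 and of 842). The endothelial sum was the lowest of the 4 there, at 56762 against 58312 to 59595. The part of these cells in the Robo2 and Unc5b values was not tested.

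A second pattern concerned Slit1 and Unc5c, which were high in libraries 1 and 4 and near 0 in libraries 2 and 3. Of the 9 detected genes, 3 (Slit1, Slit2 and Unc5c) had both of these libraries above both others, against 15.7% of all detected genes. Of the 42 detected pathway genes, 5 did (Ntng1, Dcc, Neo1, Flrt3 and Nell2), a smaller share than that of all detected genes. The count asks only for the order of the libraries. Slit2 (211, 196, 189 and 247 normalised reads) and Neo1 (640, 538, 462 and 691) met it without being near 0 in any library. The pattern was chosen after its values were seen. Dcc (63, 16, 18 and 121 normalised reads) and Nell2, a Robo3 ligand in the mouse (39, 6, 9 and 73), are examples of it beside Slit1 and Unc5c, although their means fell to 32.3 and 18 without library 4. Of the marker lists, progenitor and Müller glia markers showed it for 4 of 8 detected genes, endothelial and pericyte markers for 2 of 10 each, and photoreceptor markers for 1 of 9. Bipolar cell markers showed it for 1 of 5, microglia markers for 1 of 4, and amacrine and astrocyte markers for 1 of 3 each. The fibroblast list showed it for 1 of 2, through Pdgfra, which the astrocyte list also holds. Retinal ganglion cell (5), pigment epithelium (2) and erythroid (4) markers showed it for 0. The astrocyte sum was lowest in library 2 (1161, 96, 832 and 676), as was that of the pericyte and smooth muscle markers (2049, 586, 2246 and 3801). In library 4 most of the astrocyte sum was Pdgfra (553). Gfap (103), S100b (19) and Pax2 (1) were lower there than in library 1 (334, 51 and 13) and library 3 (295, 45 and 5). Of the 10 pericyte and smooth muscle markers, 6 were lowest in library 2, 3 in library 1 and 1 in library 3. The part of any of these cells in the Slit1 and Unc5c values was not tested.

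**Figure D4:**
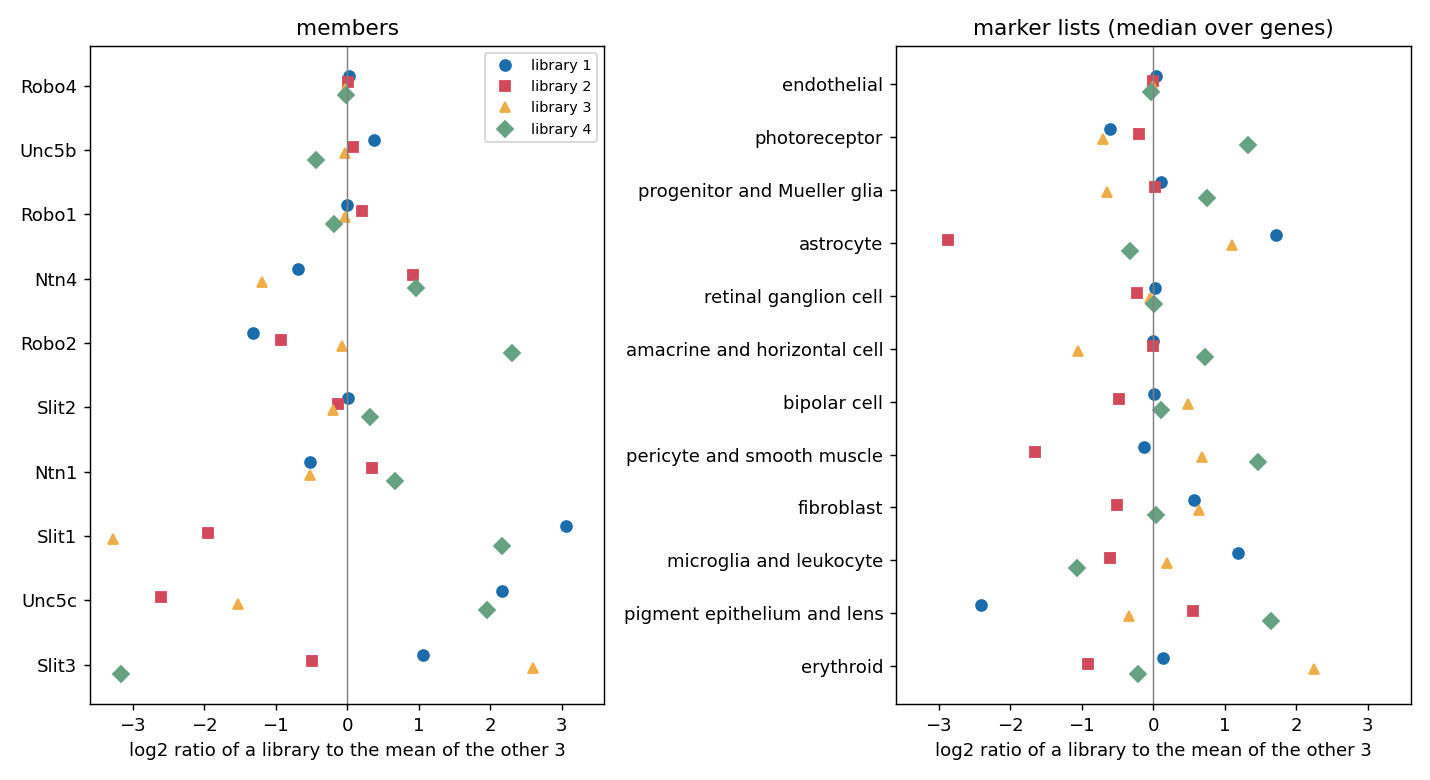
Log2 ratio of a single library to the mean of the remaining 3, for the 10 genes (left) and as the median over the genes of each marker list (right). Robo4 and the endothelial markers sit near 0 in every library, and Robo2 is shifted up in library 4 (2.31). So are photoreceptor (1.32), pericyte and smooth muscle (1.47), pigment epithelium and lens (1.65), progenitor and Müller glia (0.75), and amacrine and horizontal cell markers (0.72). Astrocyte, erythroid and microglia markers are shifted down there. Slit1 and Unc5c fall into high values in libraries 1 and 4 and low values in libraries 2 and 3.

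The other marker lists had low sums. The 5 bipolar cell markers summed to 289 to 477, the 5 erythroid markers to 203 to 705 with the highest value in library 3, and the 8 microglia and leukocyte markers to 28 to 133. The 4 fibroblast markers summed to 72 to 788, lowest in library 2, and nearly all of this sum was Pdgfra (763, 56, 487 and 553), which is also in the astrocyte list, while Col1a1 and Dcn were not detected. In addition, the 5 pigment epithelium and lens markers summed to 17 to 140, highest in library 4.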

How the data were processed

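ECs of 4 samples were profiled by poly(A) RNA-seq (stranded TruSeq libraries, 75-base single reads, per the labels; their RNA isolation text refers to HUVECs, human venous ECs, and may describe other samples). The deposited values were handled as a score: normalised read counts per gene, rounded by the authors. For these mouse samples the normalisation, aligner and build are not given in the sources used here, beyond FastQC in the submitters' processing notes; STAR and a human genome appear in the methods, in a passage on HUVECs. Since the values were not raw counts, the permutation test planned for normalised values was used. Positions equalled those of GRCm38 for 26564 of 26789 identifiers found in GENCODE M21 (99.2%). Of 26834 rows, 11 symbols stood on more than 1 row and only their highest row by mean was used.

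Exonic lengths, known for 99.8% of genes, were the union of all M21 exons. Pairs of genes were compared on log2((value + 1)/kb) by an exact two-sided permutation test (70 splits) with Benjamini-Hochberg adjustment over 45 pairs and a threshold of 0.05, using Python 3.11.15, numpy 2.4.6, pandas 2.3.3 and scipy 1.17.1. The test was tested on simulated data. For genes near 0 the added 1, which is divided by length as well, can make a difference smaller or larger. With 0.5, 1 and 10 added, Slit2 over Slit1 was 3.52, 3.16 and 1.51 on the log2 scale. Slit1 over Unc5c was -0.09, 0.20 and 1.05, without a call. The p-values set the difference between the genes of a pair against the spread between these samples, which may be technical. For pairs without overlap they are the same whatever the spread.

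The 10 genes were named in full. Of each pathway list the 3 highest and 3 lowest by mean and every paralogue were named, and of marker lists the highest gene and those at 0 in all libraries. Outside that rule fell Dcc, Nell2, Flrt3, Gpc1, Arhgap39, Srgap1, Srgap2, Ptprc, Erg, Cldn5, Tek, Gfap, Pax2, S100b, Col1a1, Dcn and the overlapping genes. They were named after their values were seen. The genes and lists were chosen with earlier results of these data known.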

Additional observations from a re-analysis of the deposited data

Results flagged for a closer look

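In 6 of 65 values tested (the detected genes among the 10, the detected pathway genes and the family shares), 1 library lay farther from the other 3 than Dixon's 95% critical value allows. Chance flags about 1 in 20 groups, or 3.25 of 65, and 6.62% of all detected genes were beyond the value. In all 6 the library was library 4 and the value was high, as for 2.32% of all detected genes. Robo2 is among the 6 by its value and again by its share, so that the 6 values are those of 5 of 51 detected genes (9.80%). Robo2 stood at 419 in library 4, against 63, 77 and 121, and made up 1.98% of the Robo sum there, against 0.30 to 0.58% in the other libraries. Flrt3, an Unc5 ligand, stood at 75 against 19 to 25. Gpc1, a glypican that binds Slits, stood at 106 against 46 to 53. Arhgap39, the relative of the fly Robo effector Vilse, stood at 363 against 234 to 252. Pxn stood at 4694 against 4004 to 4087. Library 4 also had the highest sums of photoreceptor (13543 against 4608 to 5859), pericyte and smooth muscle (3801 against 586 to 2246), progenitor and Müller glia (5548 against 3888 to 4714), amacrine and horizontal cell (292 against 57 to 102), and pigment epithelium and lens markers (140 against 17 to 65). The part of these in the 6 values was not tested.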

How the results depend on the processing

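Of 238 values recomputed under other settings, for the counts, the shares and 16 named pairs, 213 kept their call or stayed close to their size, 13 lost the call, 3 gained it, 8 moved and 1 turned with a call. Among pairs without a call (Slit1 and Slit3, Ntn4 and Robo2, Ntn4 and Slit2, Slit2 and Robo2), 11 values changed sign, also without a call. In an exact sign-flip permutation test within libraries, 0 of 45 pairs of genes passed, because 4 libraries allow no p under 0.125 (adjusted p = 0.161), and so all 34 calls were lost, those of the 7 family pairs with unchanged log2 differences: 3.54, 3.70 and 7.24 for the Robo pairs, 3.16 and 3.28 for Slit2 over Slit1 and Slit3, 8.28 for Unc5b over Unc5c and 2.15 for Ntn4 over Ntn1. As deposited, without division by length, Ntn4 over Ntn1 was 1.40 (adjusted p = 0.0735), Unc5b over Robo1 0.14 (adjusted p = 0.419) and Ntn4 over Slit2 -2.12 (adjusted p = 0.0390), all by exact permutation tests, 4 calls were lost and 3 gained, and the shares became 77.6% for Robo4, 92.2% for Slit2 and 73.5% for Unc5b. The Robo4 share was 83.8% with the longest transcript and 83.5% with basic transcripts, and the Ntn4 share 81.9% without Ntn3; the basic transcripts and the netrin sum without Ntn3 were chosen after seeing the data. A mean of at least 100 left 5 of the 10 genes detected. The number of passing pairs was 33 as deposited and 36 with either other length, where Robo2 over Ntn1 passed at 2.24.

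Leaving out each library in turn gave 34 to 36 pairs without overlap, 8 to 9 detected genes, and shares of 90.3 to 91.3% for Robo4, 69.3 to 80.2% for Slit2, 63.3 to 68.0% for Unc5b and 34.6 to 45.9% for Ntn4. With 3 libraries no p can fall under 0.1. The unknown number of reads limits Slit1, Slit3, Unc5c and Ntn1 most, and joined exons can exceed the transcripts present in these cells, which bears most on Robo1 and Slit2.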
